A study of Mus musculus with 27 samples.

Results

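The 8 genes described here, *Ccl3*, *Ccl4*, *Ccl5*, *Ccl17*, *Ccl22*, *Cxcl9*, *Cxcl10* and *Cxcl16*, encode chemokines that activated B cells can make. They were chosen by name from the 54532 genes counted, with earlier results of these data known. Splenic B cells of wild-type C57BL/6 mice were isolated by negative selection, which leaves B cells untouched. RNA-seq of poly-A RNA was done on cells taken 3 h after stimulation, and on unstimulated cells. The unstimulated and stimulated controls all received DMSO, the vehicle of the inhibitors. In the first experiment there were 5 groups of 4 libraries. These were unstimulated B cells, B cells under IL-4+anti-CD40 or LPS, and B cells under either stimulus with 1 μM disulfiram (DSF). LPS, a bacterial lipopolysaccharide, signals through TLR4, and IL-4 with an antibody that engages CD40 stands in for help from T cells. A second experiment had 1 library per condition, with the same 5 conditions and, in addition, ibrutinib, an inhibitor of the kinase BTK, with either stimulus. The labels name ibrutinib beside the 1 μM of DSF. The authors describe cells given DSF or ibrutinib as pre-treated. How long before stimulation the inhibitors were given is not stated in the sources used here. The age of the mice whose cells were cultured, and whether libraries came from separate mice, are not given in the sources used here. The authors call the 4 samples per group biologically independent, without saying whether mice or cultures differed. The p-values therefore measure the spread between these libraries, part of which may be technical.

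Chemokines are small secreted proteins that guide leukocytes through G-protein-coupled receptors. CCL3, CCL4 and CCL5 attract T cells and myeloid cells. CCL17 and CCL22 are ligands of CCR4 and attract helper and regulatory T cells, CXCL9 and CXCL10 are interferon-inducible ligands of CXCR3, and CXCL16 is a membrane-bound ligand of CXCR6 that is released by ADAM10.

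In the mm10 positions of the count table, most of the genes lay in pairs or clusters. *Ccl3* (chr11:83647844-83649355, minus strand) lay 13228 bases from *Ccl4* (chr11:83662584-83664683, plus strand) and 117325 bases from *Ccl5* (chr11:83525778-83530518, minus strand). *Ccl17* (chr8:94810453-94812036) and *Ccl22* (chr8:94745590-94751699) were 58753 bases apart on the plus strand, and *Cxcl9* (chr5:92321347-92328079) and *Cxcl10* (chr5:92346638-92348889) were 18558 bases apart on the minus strand. *Cxcl16* (chr11:70453983-70459984, minus strand) stood alone. In GENCODE vM21, *Art3* overlapped *Cxcl10* and *Zmynd15* overlapped *Cxcl16*, each on the opposite strand. The strand setting of the counting was not given in the sources used here, so reads of such pairs may not be told apart. *Art3* had 0 to 13 counts per library of the first experiment and *Zmynd15* had 19 to 126.

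RefSeq promoters (GRCm38.p6) were found for 5 of the 8 genes: *Ccl3*, *Ccl17*, *Ccl22*, *Cxcl9* and *Cxcl10*. The 250 bases before the start site are printed for 4 of them, since *Cxcl10* and *Ccl17* had opposite preferences for the stimuli, and *Cxcl9* and *Ccl3* are shown for comparison. *Ccl22* is left out, since its start site in RefSeq differed from the gene start in the count table. For *Ccl3* the RefSeq start, 83649378, also lay beyond the table's, 83649355. Capitals mark matches, on either strand, to 5 motifs.
Cxcl10, chr5:92348890-92349139, minus strand: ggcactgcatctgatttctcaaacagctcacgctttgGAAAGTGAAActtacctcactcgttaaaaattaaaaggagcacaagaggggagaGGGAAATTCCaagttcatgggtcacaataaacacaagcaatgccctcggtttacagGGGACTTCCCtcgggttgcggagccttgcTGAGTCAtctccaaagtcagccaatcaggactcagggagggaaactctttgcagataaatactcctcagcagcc
Cxcl9, chr5:92328080-92328329, minus strand: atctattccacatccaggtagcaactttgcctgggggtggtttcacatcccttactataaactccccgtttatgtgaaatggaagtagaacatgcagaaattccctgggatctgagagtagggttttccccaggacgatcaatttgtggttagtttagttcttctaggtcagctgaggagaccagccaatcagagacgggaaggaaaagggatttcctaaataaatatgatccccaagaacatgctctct
Ccl17, chr8:94810203-94810452, plus strand: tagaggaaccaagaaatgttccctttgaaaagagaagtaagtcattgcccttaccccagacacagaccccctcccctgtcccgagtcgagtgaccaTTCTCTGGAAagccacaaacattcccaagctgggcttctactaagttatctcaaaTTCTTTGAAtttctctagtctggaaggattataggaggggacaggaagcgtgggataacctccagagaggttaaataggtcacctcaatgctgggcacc
Ccl3, chr11:83649379-83649628, minus strand: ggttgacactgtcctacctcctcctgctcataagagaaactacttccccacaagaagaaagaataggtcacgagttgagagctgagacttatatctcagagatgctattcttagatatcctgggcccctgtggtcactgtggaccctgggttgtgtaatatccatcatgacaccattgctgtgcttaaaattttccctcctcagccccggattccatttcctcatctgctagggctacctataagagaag
The *Cxcl10* stretch held GAAANNGAAA, the repeated GAAA bound by interferon regulatory factors, at -213 to -204 from the start site, the NF-κB consensus at -159 to -150 and at -103 to -94, and the AP-1 motif TGANTCA at -74 to -68. The *Ccl17* stretch held TTCNNNNGAA, the palindrome with the spacing that STAT6 prefers, at -154 to -145, and TTCNNNGAA, the interferon-gamma-activated palindrome, at -99 to -91. No match overlapped another. None of the 5 motifs matched in the *Cxcl9* or *Ccl3* stretches, nor in the 250 bases before the RefSeq start of *Ccl22*, which are not printed. Of 32851 RefSeq promoters, 2.98% held GAAANNGAAA in the same 250 bases, 3.9% the NF-κB consensus, 6.75% TGANTCA, 5.85% TTCNNNNGAA and 7.02% TTCNNNGAA. Such matches describe the sequence, and binding was not measured.

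The 20 libraries of the first experiment held 17804851 to 23632992 counts each, and the 7 of the second 16049295 to 24619776. The B cell gene *Cd79a*, which encodes a signalling chain of the B cell receptor, was high in every library of the first experiment (405 to 1911 CPM, counts relative to the library's TMM-scaled total), whereas *Cd3e* of T cells was at most 2.04 CPM and *Nkg7* of NK cells at most 1.23 CPM. Macrophage and monocyte genes were present: none of the 9 was at 0 in all 20 libraries, 1 (*Mertk*) was at 0 in some, and *Lyz2* and *Csf1r* were found in every library. Their summed level was 554 to 667 CPM in unstimulated B cells, 155 to 178 with LPS, 172 to 178 with LPS and DSF, 174 to 199 with IL-4+anti-CD40 and 234 to 299 with IL-4+anti-CD40 and DSF. The summed level of 8 dendritic cell genes was 47.8 to 55.0, 69.3 to 74.7, 110 to 121, 113 to 126 and 126 to 133 CPM in the same order. These sums did not stand for each dendritic cell gene. Of 7 tested for LPS against unstimulated B cells, 1 was higher and 4 were lower (edgeR adjusted p under 0.05). For IL-4+anti-CD40 the same test gave 3 higher and 4 lower among 8. For DSF it gave 2 higher and 3 lower among 6 under LPS, and 1 of each among 7 under IL-4+anti-CD40. Among macrophage and monocyte genes, 1 was higher and 5 lower of 8 with LPS against unstimulated B cells. With IL-4+anti-CD40 0 were higher and 5 lower of 8. For DSF 3 were higher and 2 lower of 8 under LPS, and 4 higher and 0 lower of 7 under IL-4+anti-CD40. The part of the macrophage, monocyte and dendritic cell genes in the results below was not tested. In bulk RNA, fewer cells of a type and less RNA per cell cannot be told apart.

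Replicates 1 and 2 stood apart from replicates 3 and 4, most in the unstimulated and the IL-4+anti-CD40 libraries. Over genes averaging 10 or more counts, unstimulated libraries differed by a root mean square of 0.808 to 0.813 (log2) between these subsets and by 0.303 to 0.344 within them, and IL-4+anti-CD40 libraries by 0.455 to 0.548 and 0.362 to 0.381. The ranges were 0.360 to 0.369 and 0.339 to 0.366 under LPS, and 0.365 to 0.404 and 0.339 to 0.365 with IL-4+anti-CD40 and DSF. The chemokine genes followed this split. *Ccl4*, at 15.02, 13.7, 0.491 and 0.226 CPM in unstimulated replicates 1 to 4, was 40.1 times as high in replicates 1 and 2 as in replicates 3 and 4, *Ccl3* 18.0 times, *Ccl22* 7.82 times and *Cxcl16* 7.61 times. With IL-4+anti-CD40 the order was the opposite, with *Ccl5* 7.24 times and *Cxcl10* 5.71 times as high in replicates 3 and 4. Where DSF was added to IL-4+anti-CD40, *Ccl5* (4.89 times), *Cxcl10* (3.66), *Ccl4* (3.45) and *Ccl3* (2.10) were also higher in replicates 3 and 4, whereas with LPS no gene but *Cxcl9*, at 1.40, differed more than 1.21 times. Marker genes differed between the same unstimulated libraries. The summed level of 6 B cell genes was 4460, 4394, 7514 and 7438 CPM in replicates 1 to 4, that of 7 neutrophil genes 43.8, 41.8, 18.4 and 21.2 CPM, that of 8 T cell genes 13.2, 13.96, 6.84 and 8.28 CPM, and that of the macrophage and monocyte genes 568, 554, 643 and 667 CPM. Neutrophil and T cell genes were thus higher, and B cell, macrophage and monocyte genes lower, in replicates 1 and 2, and their part in the split was not tested. The labels name no batch. Results are therefore given for all 4 replicates. Beside many results for the 8 genes that rest on the unstimulated or IL-4+anti-CD40 libraries, values for replicates 1 and 2 and replicates 3 and 4 apart are added. The lists of other genes were tested with all 4 replicates only, so their calls may rest on 1 of these subsets.

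**Figure D1:**
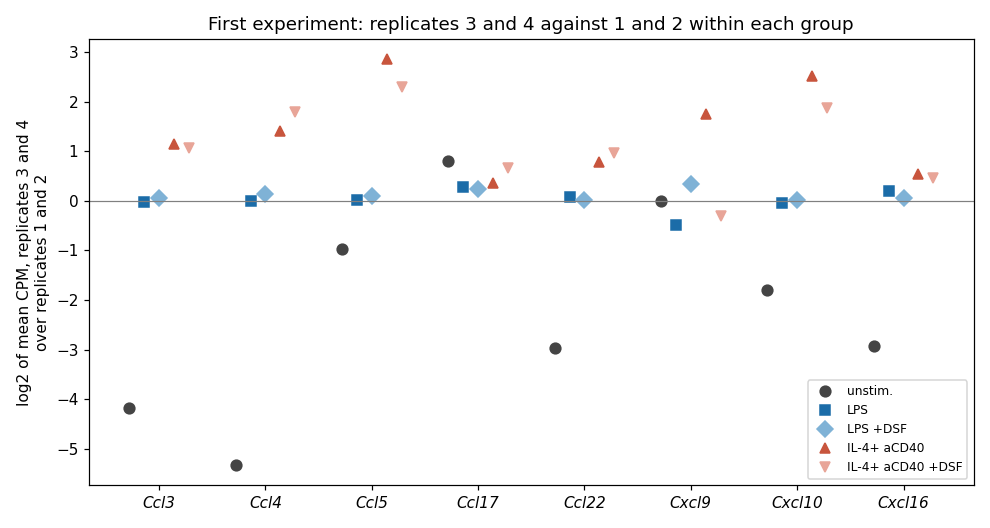
Mean CPM of replicates 3 and 4 over that of replicates 1 and 2, on a log2 scale, for the 8 genes in the 5 groups of the first experiment; each point is 1 group. Unstimulated points reach far below 0 for *Ccl4* (40.1 times) and *Ccl3* (18.0 times), IL-4+anti-CD40 points lie above 0, and LPS points lie near 0.

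The first question was which chemokine genes each stimulus raised within 3 h. LPS raised 7 of the 8 genes above unstimulated B cells and lowered none at an adjusted p under 0.05 (quasi-likelihood test of edgeR, n = 4 per group), where 29.6% of all genes tested were higher and 33.3% lower (20.1% and 44.1% with scaling by total counts). Over the 8 genes the log2 fold changes had a median of 4.15, and over all 14477 genes tested one of -0.05. IL-4+anti-CD40 raised 3 and lowered 1, where 30.4% of genes were higher and 32.1% lower (23.9% and 38.6% by total counts), with medians of 1.83 and -0.04. The 2 comparisons share the unstimulated libraries. The genes were chosen as chemokines of activated B cells, so the number that rose is not independent of that choice.

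**Figure D2:**
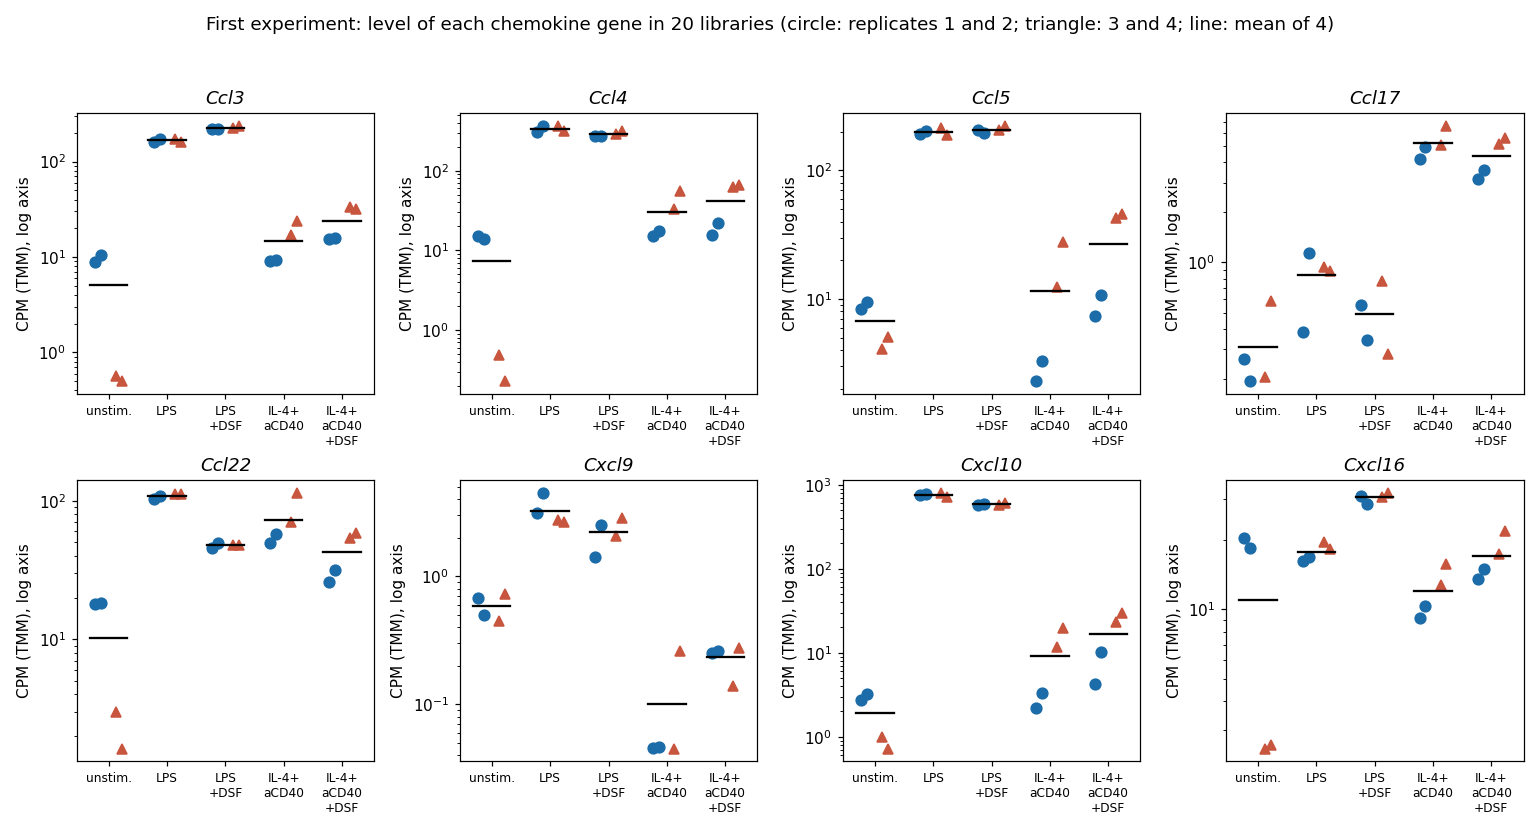
CPM (log axis) of each gene in the 20 libraries of the first experiment by group; circles are replicates 1 and 2, triangles replicates 3 and 4, and lines the mean of 4. *Cxcl10* lay at 705 to 796 CPM with LPS and at 2.20 to 19.9 CPM with IL-4+anti-CD40, while *Ccl17* lay at 4.16 to 6.61 CPM with IL-4+anti-CD40 and at 0.384 to 1.13 CPM with LPS.

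Among *Ccl3*, *Ccl4* and *Ccl5*, *Ccl4* was at 310, 366, 365 and 312 CPM with LPS and at 15.02, 13.7, 0.491 and 0.226 CPM in unstimulated B cells. Every LPS library was above every unstimulated one, and the log2 fold change was 5.52 ± 1.02 (SE, n = 4 per group, edgeR adjusted p = 0.00146). *Ccl3* was at 162, 174, 174 and 159 CPM with LPS and at 8.83, 10.4, 0.573 and 0.497 CPM unstimulated, a log2 fold change of 5.03 ± 0.81 (edgeR adjusted p = 0.000687). The size of both rises depended on the replicates used: with replicates 1 and 2 only they were 4.57 and 4.14, and with replicates 3 and 4 only 9.88 and 8.30. *Ccl5* rose from 8.34, 9.41, 4.05 and 5.06 CPM to 192, 202, 212 and 190 CPM, by 4.89 ± 0.26 (edgeR adjusted p = 1.53e-06). Its rise was 4.49 with replicates 1 and 2 only and 5.51 with replicates 3 and 4 only.

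Whether *Ccl3*, *Ccl4* and *Ccl5* rose with IL-4+anti-CD40 turned on the replicates used. *Ccl5* was at 2.29, 3.27, 12.5 and 27.7 CPM, values that lie on both sides of the unstimulated ones, and its log2 fold change was 0.80 ± 0.69 (edgeR adjusted p = 0.338). It was lower than unstimulated in replicates 1 and 2 only (-1.62, edgeR adjusted p = 4.8e-06) and higher in replicates 3 and 4 only (2.21, edgeR adjusted p = 3.26e-05). *Ccl3*, at 9.10, 9.40, 17.0 and 23.7 CPM, overlapped unstimulated replicates 1 and 2 (1.58 ± 0.85, edgeR adjusted p = 0.133). Its difference was 0.00 with replicates 1 and 2 only (edgeR adjusted p = 0.986) and 5.30 with replicates 3 and 4 only (edgeR adjusted p = 1.87e-09). *Ccl4*, at 15.2, 17.7, 32.6 and 55.3 CPM, was above all unstimulated libraries, but by little in replicates 1 and 2 (2.07 ± 1.00, edgeR adjusted p = 0.1001). It was 0.25 with replicates 1 and 2 only (edgeR adjusted p = 0.0518) and 6.96 with replicates 3 and 4 only (edgeR adjusted p = 2.76e-09). With all 20 libraries in one fit, *Ccl3* (1.51, edgeR adjusted p = 0.0202) and *Ccl4* (2.01, edgeR adjusted p = 0.0149) passed as higher with all replicates kept, and 6 genes were called in place of 4.

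IL-4+anti-CD40 raised both CCR4 ligands, with all replicates and in each subset of them. *Ccl17* was at 4.16, 4.93, 5.05 and 6.61 CPM with IL-4+anti-CD40, at 0.384, 1.13, 0.942 and 0.892 CPM with LPS and at 0.263, 0.193, 0.205 and 0.588 CPM unstimulated. All IL-4+anti-CD40 libraries were above all others, with a log2 fold change over unstimulated of 4.11 ± 0.35 (edgeR adjusted p = 1.81e-05), 4.34 with replicates 1 and 2 only and 3.96 with replicates 3 and 4 only. The rise of *Ccl17* with LPS was 1.44 ± 0.46 (edgeR adjusted p = 0.0226) and rests on 8 to 26 counts per LPS library, 1 of which lay below an unstimulated library. Without unstimulated replicate 2 or 3, or LPS replicate 2, 3 or 4, it no longer passed the test (edgeR adjusted p = 0.0505 to 0.0677).

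*Ccl22* rose with both stimuli. It was at 102, 109, 113 and 111 CPM with LPS, at 49.4, 57.8, 70.1 and 114 CPM with IL-4+anti-CD40 and at 17.9, 18.2, 2.99 and 1.63 CPM unstimulated. No stimulated library overlapped an unstimulated one, and the log2 fold changes were 3.42 ± 0.66 under LPS (edgeR adjusted p = 0.00188) and 2.88 ± 0.69 under IL-4+anti-CD40 (edgeR adjusted p = 0.00564). With replicates 1 and 2 only they were 2.56 and 1.63, and with replicates 3 and 4 only 5.62 and 5.37.

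Of the 8 genes, the CXCR3 ligands had the largest differences between the stimuli. *Cxcl10* was at 751, 784, 796 and 705 CPM with LPS and at 2.70, 3.24, 0.982 and 0.724 CPM unstimulated, a 392-fold rise (log2 8.62 ± 0.45, edgeR adjusted p = 1.44e-06). The log2 rise was 8.03 with replicates 1 and 2 only and 9.80 with replicates 3 and 4 only. With IL-4+anti-CD40 *Cxcl10* was at 2.20, 3.32, 11.5 and 19.9 CPM, which overlaps the unstimulated libraries in replicates 1 and 2 (2.30 ± 0.74, edgeR adjusted p = 0.0221). This call ended with replicates 1 and 2 only, where the difference was -0.05 (edgeR adjusted p = 0.867), and was 4.25 with replicates 3 and 4 only. It also ended without unstimulated replicate 3 or 4, or IL-4+anti-CD40 replicate 3 or 4 (1.63 to 2.18, edgeR adjusted p = 0.0511 to 0.0723).

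*Cxcl9* moved in opposite directions with the stimuli. It had 18, 13, 11 and 16 counts in unstimulated B cells, 65, 103, 53 and 48 under LPS and 1, 1, 1 and 5 under IL-4+anti-CD40, so the 3 groups did not overlap. The log2 fold change was 2.48 ± 0.26 with LPS (edgeR adjusted p = 5.6e-05) and -2.50 ± 0.53 under IL-4+anti-CD40 (edgeR adjusted p = 0.00294). With replicates 1 and 2 only they were 2.70 and -3.49, and with replicates 3 and 4 only 2.26 and -1.88. Summed over 4 libraries, 58 counts unstimulated against 8 with IL-4+anti-CD40 gave a ratio of 6.61, with a 95% counting interval of 3.14 to 16.03. Such intervals cover counting error only.

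*Cxcl16*, the CXCR6 ligand, was at 16.2, 16.8, 19.5 and 18.2 CPM with LPS, 9.15, 10.3, 12.8 and 15.6 CPM with IL-4+anti-CD40 and 20.2, 18.4, 2.50 and 2.58 CPM unstimulated. The stimulated libraries lay between unstimulated replicates 1 and 2 and unstimulated replicates 3 and 4, apart from an LPS library at 19.5 CPM. Neither difference passed the test (0.70 ± 0.64 under LPS, edgeR adjusted p = 0.362, and 0.18 ± 0.65 under IL-4+anti-CD40, edgeR adjusted p = 0.818). Its direction turned between replicates 1 and 2 only and replicates 3 and 4 only, from -0.21 (edgeR adjusted p = 0.0638) to 2.94 (edgeR adjusted p = 5.73e-11) under LPS and from -0.93 (edgeR adjusted p = 6.7e-06) to 2.55 (edgeR adjusted p = 6.2e-08) under IL-4+anti-CD40.

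Compared directly, LPS exceeded IL-4+anti-CD40 for 7 genes and was below it for *Ccl17*, where 22.3% of 14078 genes were higher and 17.3% lower with LPS (17.2% and 33.5% by total counts). *Cxcl10* differed most (log2 6.39 ± 0.51), then *Cxcl9* (5.04 ± 0.42), *Ccl5* (4.16 ± 0.54), *Ccl3* (3.52 ± 0.24) and *Ccl4* (3.50 ± 0.33), each with an edgeR adjusted p under 0.05 in both subsets of replicates too. *Ccl17* was 6.09-fold lower with LPS (-2.61 ± 0.26, edgeR adjusted p = 7.15e-06). *Ccl22* was 0.59 ± 0.20 higher (edgeR adjusted p = 0.0332), but 1 IL-4+anti-CD40 library (114 CPM) was above all LPS libraries, and the call ended with replicates 3 and 4 only (0.29, edgeR adjusted p = 0.185). It also ended under DESeq2 (adjusted p = 0.0931), under scaling by total counts, with all 20 libraries in one fit, and when any single one of 7 of the 8 libraries was left out. *Cxcl16* was 0.57 ± 0.14 higher with LPS (edgeR adjusted p = 0.00731), a call that ended with all 20 libraries in one fit (edgeR adjusted p = 0.368).

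Levels between genes were compared by the authors' FPKM, which divide by gene length. With LPS the order was *Ccl4* (mean 504 FPKM, 461 to 545), *Cxcl10* (331, 308 to 348), *Ccl3* (215, 204 to 223), *Ccl5* (204, 194 to 218), *Ccl22* (46.0, 43.2 to 47.6), *Cxcl16* (5.76), *Ccl17* (1.60) and *Cxcl9* (1.06). Neighbours overlapped only for *Ccl3* with *Ccl5* and *Ccl17* with *Cxcl9*. With IL-4+anti-CD40 *Ccl4* (46.0 FPKM, 23.6 to 83.1) and *Ccl22* (31.6, 21.7 to 48.5) led, *Ccl17* (10.2, 8.29 to 12.8) came before *Cxcl10* (4.11, 0.998 to 8.78), and all neighbours overlapped down to *Cxcl16*, above *Cxcl9* at 0.0332. Unstimulated levels ran from 11.1 FPKM for *Ccl4* to 0.192 for *Cxcl9*, the latter alone below all its neighbours.

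The second question was what DSF did to these genes under each stimulus. With LPS, DSF lowered *Ccl4*, *Ccl22*, *Cxcl9* and *Cxcl10* and raised *Ccl3* and *Cxcl16*, and 2 genes did not pass the test. Of all 14154 genes tested, 35.1% were higher and 36% lower (24.5% and 47.2% by total counts), so the 6 calls among 8 are near the background of that comparison. The 8 log2 fold changes had a median of -0.31, and those of all genes one of 0.00. With all 20 libraries in one fit, 1 of the 6 genes, *Ccl22*, passed the test. That fit takes the spread of each gene from all 5 groups, including the unstimulated libraries, which differed most between replicates. With IL-4+anti-CD40, DSF lowered 1 of 7 genes tested, *Ccl22*, and raised none in the fit by group alone, where 30.1% of 14275 genes were higher and 31.6% lower (22.9% and 40.9% by total counts). That result depended on the fit. With the replicate number as a block, or the subset of replicates as a term, 5 genes were called, and *Ccl3*, *Ccl5*, *Cxcl10* and *Cxcl16* passed as higher. With all 20 libraries in one fit, 0 were called. Both comparisons of DSF share their vehicle libraries with the comparisons above.

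**Figure D3:**
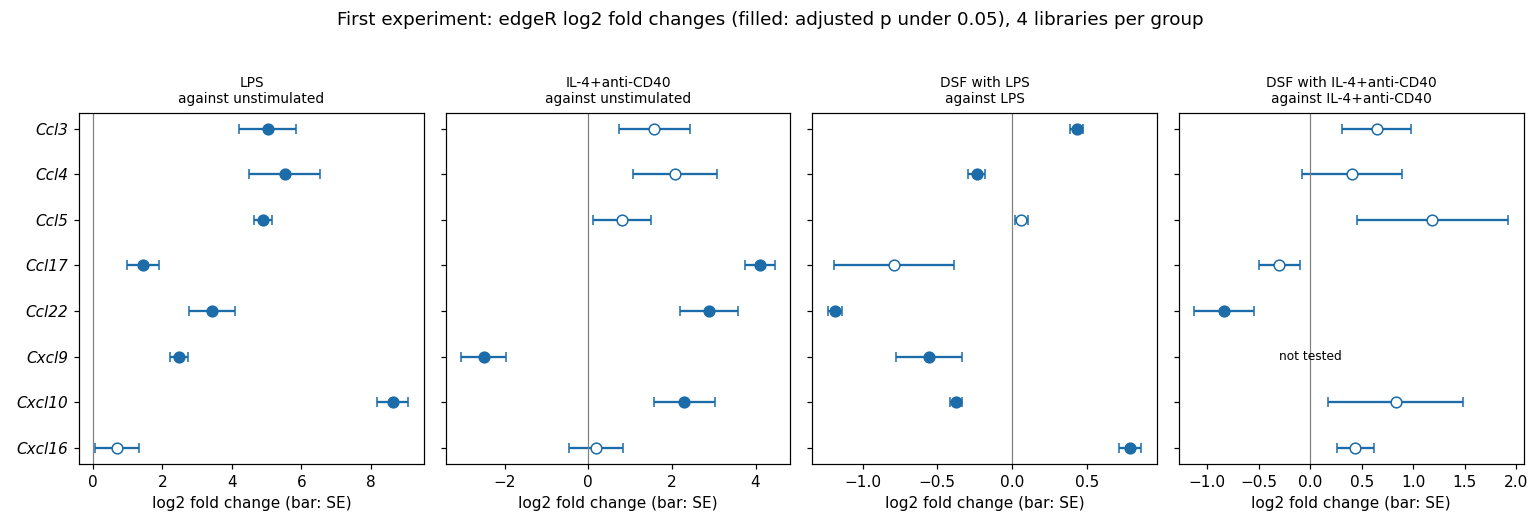
Log2 fold changes with SE bars (edgeR, 4 libraries per group) of the 8 genes for each stimulus against unstimulated B cells and for DSF under each stimulus; filled points have an adjusted p under 0.05. *Ccl22* is lower with DSF in both right-hand panels, by 1.18 and 0.84.

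Of the 8 genes, *Ccl22* fell furthest with DSF under both stimuli in the first experiment, whereas *Cxcl10* and *Ccl4* had lower log2 ratios than *Ccl22* in the second. With LPS and DSF it was at 45.4, 49.4, 48.2 and 47.8 CPM, below every library with LPS alone (102 to 113 CPM), and 43.9% of the mean level was kept (log2 -1.18 ± 0.05, edgeR adjusted p = 3.23e-17). With IL-4+anti-CD40 and DSF it was at 25.8, 31.7, 53.7 and 58.4 CPM against 49.4, 57.8, 70.1 and 114 CPM without, so the groups overlapped and 58.3% of the mean was kept (-0.84 ± 0.29, edgeR adjusted p = 0.0246). DSF replicates 1 and 2 lay at 0.536 of vehicle replicates 1 and 2, and replicates 3 and 4 at 0.610 of theirs, with log2 differences of -0.98 and -0.75 that passed the test. The call with IL-4+anti-CD40 ended under DESeq2 (adjusted p = 0.0660), with all 20 libraries in one fit (edgeR adjusted p = 0.149), and without IL-4+anti-CD40 replicate 4 or IL-4+anti-CD40 and DSF replicate 1 or 2 (-0.55 to -0.72, edgeR adjusted p = 0.0570 to 0.0711).

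*Ccl17*, the other CCR4 ligand, did not pass the test under either stimulus. With IL-4+anti-CD40 and DSF it was at 3.19, 3.61, 5.15 and 5.58 CPM, overlapping the 4.16 to 6.61 CPM without DSF (-0.30 ± 0.20, edgeR adjusted p = 0.214). With LPS and DSF it had 5 to 12 counts per library, against 8 to 26 with LPS (-0.79 ± 0.40, edgeR adjusted p = 0.0816). It passed as lower without LPS replicate 1 or LPS and DSF replicate 3 (edgeR adjusted p = 0.0208 and 0.0354).

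*Cxcl10* with LPS and DSF was at 580, 581, 576 and 597 CPM, below all LPS libraries at 705 to 796 CPM, with 76.9% of the mean kept (-0.38 ± 0.04, edgeR adjusted p = 1.6e-08). It was still 296-fold above unstimulated B cells (log2 8.21, 7.56 with replicates 1 and 2 only and 9.40 with replicates 3 and 4 only). With IL-4+anti-CD40 and DSF it was at 4.25, 10.2, 23.5 and 29.6 CPM, overlapping the 2.20 to 19.9 CPM without (0.83 ± 0.65, edgeR adjusted p = 0.294). *Cxcl9* with LPS fell from 3.12, 4.50, 2.77 and 2.68 CPM to 1.42, 2.52, 2.08 and 2.88 CPM (-0.55 ± 0.22, edgeR adjusted p = 0.0286). Those groups overlapped, and the call ended under DESeq2 (adjusted p = 0.0614), without LPS replicate 2 or LPS and DSF replicate 1 or 3 (edgeR adjusted p = 0.0578 to 0.152), and with replicates 3 and 4 only (-0.14). With IL-4+anti-CD40 *Cxcl9* had 5, 5, 3 and 6 counts with DSF and was left out by the filter on low counts, and the ratio of the summed counts, 19 against 8, was 2.11 with a 95% counting interval of 0.882 to 5.57.

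*Ccl3*, *Ccl4* and *Ccl5* differed among themselves. *Ccl3* with LPS and DSF was at 220, 220, 222 and 237 CPM, above all LPS libraries at 159 to 174 CPM (0.43 ± 0.04, edgeR adjusted p = 1.67e-09). *Ccl4* was at 271, 274, 287 and 312 CPM against 310, 366, 365 and 312 CPM, with its highest DSF library above the lowest without (-0.24 ± 0.05, edgeR adjusted p = 0.000389). *Ccl5*, at 207, 195, 206 and 222 CPM against 192, 202, 212 and 190 CPM, overlapped and did not pass the test (0.06 ± 0.05, edgeR adjusted p = 0.234). By total counts, which lowered the median gene by 0.21 on the log2 scale in this comparison, *Ccl5* was lower (-0.15, edgeR adjusted p = 0.00497) and *Ccl17* passed as lower.

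With IL-4+anti-CD40 and DSF, *Ccl3* was at 15.3, 15.7, 33.3 and 31.8 CPM against 9.10, 9.40, 17.0 and 23.7 CPM, and *Ccl5* at 7.40, 10.8, 42.7 and 46.1 CPM against 2.29, 3.27, 12.5 and 27.7 CPM. In replicates 1 and 2 the DSF mean was 1.67 times the vehicle mean for *Ccl3* and 3.27 times for *Ccl5*, and in replicates 3 and 4 it was 1.60 and 2.20 times, while the groups as a whole overlapped and did not pass the test (0.65 ± 0.34 and 1.18 ± 0.73, edgeR adjusted p = 0.116 and 0.182). With replicates 1 and 2 only both passed as higher (0.67 and 1.63), as they did with replicates 3 and 4 only (0.64 and 1.11). *Ccl4* was at 15.6, 21.8, 62.6 and 66.0 CPM (0.41 ± 0.49, edgeR adjusted p = 0.492) and passed with replicates 3 and 4 only (0.51, edgeR adjusted p = 0.0175). *Cxcl10* likewise passed as higher in each subset (1.31 and 0.72).

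*Cxcl16* rose with DSF under LPS. It was at 30.9, 28.6, 30.5 and 31.8 CPM against 16.2, 16.8, 19.5 and 18.2 CPM, with no overlap, at 172% of the mean without DSF (0.79 ± 0.07, edgeR adjusted p = 6.81e-10). With IL-4+anti-CD40 it was at 13.5, 14.9, 17.4 and 21.8 CPM against 9.15, 10.3, 12.8 and 15.6 CPM, overlapping, at 141% (0.44 ± 0.18, edgeR adjusted p = 0.0516). There it passed in each subset of replicates (0.47 and 0.42), under DESeq2 (adjusted p = 0.0280) and with DESeq2's size factors (edgeR adjusted p = 0.0423).

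Whether the effect of DSF differed between the stimuli was tested by an interaction term over 16 libraries, for which 7.92% of 15130 genes were higher and 6.96% lower (5.46% and 9.41% by total counts). None of the 8 genes passed (edgeR), 1 had an unadjusted p under 0.05, and DESeq2 also called 0. That gene was *Cxcl9*, whose DSF effect was 1.73 ± 0.67 lower with LPS on the log2 scale (edgeR adjusted p = 0.0903). For *Ccl22* the difference was -0.36 ± 0.31 (edgeR adjusted p = 0.486), and for *Cxcl10* -1.23 ± 0.62 (edgeR adjusted p = 0.203). With all genes that had any count, *Ccl4*, *Ccl5* and *Cxcl10* passed (edgeR adjusted p = 0.0234, 0.00145 and 6.99e-05), and without IL-4+anti-CD40 replicate 4 *Ccl5*, *Cxcl9* and *Cxcl10* did (edgeR adjusted p = 0.0151 to 0.0261).

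With DSF present the stimulated cells were also compared with unstimulated B cells, the same libraries as above. With LPS and DSF, 6 of 7 genes tested were higher, where 34.3% of genes were higher and 37.3% lower (21.5% and 50.8% by total counts). *Cxcl16* did not pass (1.45 ± 0.63, edgeR adjusted p = 0.0643) but did in each subset of replicates (0.57 and 3.61), and *Ccl17* was left out by the filter. With IL-4+anti-CD40 and DSF, *Ccl3*, *Ccl5*, *Ccl17*, *Ccl22* and *Cxcl10* were higher and *Cxcl9* lower, where 33.4% of genes were higher and 35.3% lower (21.2% and 46.1% by total counts). *Ccl4* did not pass with all replicates (2.48 ± 1.03, edgeR adjusted p = 0.0569). It passed as higher with replicates 1 and 2 only (0.35, edgeR adjusted p = 0.0142), with replicates 3 and 4 only (7.45, edgeR adjusted p = 2.9e-16), without unstimulated replicate 1 (3.05, edgeR adjusted p = 0.0417), with any count (edgeR adjusted p = 0.0454) and with all 20 libraries in one fit (edgeR adjusted p = 0.00362). The call on *Cxcl9* ended with replicates 1 and 2 only (-1.21, edgeR adjusted p = 0.0662). With the replicate block those on *Ccl3*, *Ccl5* and *Ccl22* ended (edgeR adjusted p = 0.0711, 0.0946 and 0.0527), and under DESeq2 that on *Ccl3* (adjusted p = 0.0537). The calls on *Ccl3* and *Ccl22* ended with scaling by total counts (edgeR adjusted p = 0.0726 and 0.0526) and, for 6 and 2 of the 8 libraries, when that library was left out. With replicates 1 and 2 only *Ccl5* did not differ beyond the spread (0.00, edgeR adjusted p = 0.983) and *Cxcl16* was lower (-0.47, edgeR adjusted p = 0.000362), and with replicates 3 and 4 only both were higher (3.30 and 2.96, edgeR adjusted p = 1.1e-13 and 2.64e-11).

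The genes around these chemokines were read from the same fits, and the shares of all genes above are their background too. Of 30 other chemokine ligands, 11 could be tested for DSF with LPS, of which 5 were higher and 5 lower. *Cxcl2*, a neutrophil attractant, was at 163 to 186 CPM with LPS and DSF against 17.7 to 27.1 CPM with LPS alone (2.99 ± 0.08), and at 13.4, 22.3, 68.3 and 72.9 CPM against 0.595, 1.47, 5.10 and 12.4 CPM with IL-4+anti-CD40 (3.15 ± 0.73). *Cxcl3* (1.75 and 2.88) and *Ccl27a* (1.81 and 1.74) were also higher with DSF under LPS and IL-4+anti-CD40, and *Ccl24* (-1.70 and -1.04), *Ccl6* (-1.60 and -1.03) and *Ccl28* (-1.53 and -1.56) were lower. For DSF with IL-4+anti-CD40, 4 of 9 tested ligands were higher and 4 lower. Against unstimulated B cells, LPS raised 5 of 11 and lowered 1. IL-4+anti-CD40 raised 2 of 9, *Ccl28* (1.78) and *Ccl9* (1.08), and lowered 2. *Ccl6*, called lower with either stimulus, was at 6.46, 5.67, 28.1 and 26.1 CPM in unstimulated replicates 1 to 4. With IL-4+anti-CD40 it was at 4.827 to 6.975 CPM, which overlaps unstimulated replicates 1 and 2 but not 3 and 4. *Cxcl11* RNA was at 1.31 to 2.20 CPM with LPS and at most 0.0386 CPM in unstimulated libraries, and its protein was not measured.

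Among 12 genes of the chemokines' receptors and processing, *Dpp4*, a protease that trims several of these chemokines, was at 92.9 to 136 CPM in unstimulated B cells, 142 to 170 CPM with LPS and 18.8 to 22.3 CPM with IL-4+anti-CD40, and the 3 groups did not overlap. It fell with DSF under LPS to 41.6 to 45.1 CPM (-1.85 ± 0.06, edgeR adjusted p = 2.52e-19), and its DSF effect differed between the stimuli by -1.83 ± 0.11 (edgeR adjusted p = 1.53e-09). *Adam10*, which releases CXCL16, was 0.17 ± 0.04 higher with DSF under LPS and 0.34 ± 0.06 under IL-4+anti-CD40. *Ackr2*, a scavenger of CC chemokines, fell from 3.08 to 18.6 CPM in unstimulated B cells to 0.105 to 0.446 CPM with LPS and 0.0915 to 0.524 CPM with IL-4+anti-CD40. Over the list, LPS raised 1 and lowered 4 of 8 genes against unstimulated B cells, 0 were higher and 6 of 8 lower under IL-4+anti-CD40, and DSF raised 3 and lowered 1 of 4 under LPS and raised 1 and lowered 0 of 6 under IL-4+anti-CD40.

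Of 25 transcription factors, inhibitors and RNA decay factors, LPS raised 22 and lowered none, and IL-4+anti-CD40 raised 16 of 24 and lowered 1. *Irf7*, an interferon regulatory factor, was at 720 to 793 CPM with LPS and at 15.8 to 57.8 CPM with IL-4+anti-CD40 (log2 difference 4.57 ± 0.33). *Ifnb1*, which encodes interferon beta, was at 0.698 to 0.863 CPM with LPS and had no count in any unstimulated library. *Tnfaip3*, an inhibitor of NF-κB signalling, rose by 3.11 ± 0.19 with IL-4+anti-CD40. DSF raised 8 and lowered 10 of 25 with LPS, and raised 3 and lowered 11 of 24 with IL-4+anti-CD40. *Zfp36*, a decay factor for short-lived mRNAs, was 0.90 ± 0.04 higher with DSF under LPS and 0.66 ± 0.06 under IL-4+anti-CD40, *Irf1* 0.89 ± 0.04 and 0.59 ± 0.13 higher, and the related *Zfp36l1* 1.18 ± 0.04 and 1.53 ± 0.11 lower.

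The genes most like each chemokine over the 20 libraries, by the root mean square difference of centred log2 CPM among 14425 genes, were *Ccl4* (0.505) and *Il1rn* (0.558) for *Ccl3*, and *Ccl3* and *Il1rn* (0.808) for *Ccl4*. For *Ccl5* they were *Ccrl2* (0.581) and *Oasl1* (0.588), for *Ccl17* *Gm19951* (0.631) and *Tbc1d16* (0.642), for *Ccl22* *Bcl2a1d* (0.550) and *Gm37881* (0.553), and for *Cxcl16* *Dusp4* (0.319) and *Crem* (0.325). *Cxcl9* was nearest to *Ifi209* (0.458) and *Gbp9* (0.464), and *Cxcl10* to *Rsad2* and *Ifit1*, both at 1.11. Of the 8 genes, only *Ccl3* and *Ccl4* had another of them among their nearest.

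The second experiment gives values of single libraries, with no replicate check. It counted 7 of the 8 genes, since *Ccl17* had a mean under 10 counts, and a 2-fold difference is used as a size only. Against unstimulated B cells, 3 genes were 2-fold or more higher with LPS and 1 lower, where 8.62% of 14275 genes were higher and 9.88% lower. Under IL-4+anti-CD40 2 were higher and 1 lower, against 10.7% and 13.7% of all genes. *Cxcl9* had 190 counts unstimulated (8.84 CPM), 24 under LPS (1.32 CPM) and 65 under IL-4+anti-CD40 (3.55 CPM). It was thus lower with LPS here and higher with LPS in the first experiment. *Cxcl10* was at 47.3 CPM unstimulated, against 0.724 to 3.24 CPM in the first experiment, at 199.9 CPM under LPS and at 152 CPM under IL-4+anti-CD40. The experiments were normalized separately.

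DSF in the second experiment lowered *Cxcl10* furthest, from 3633 to 241 counts with LPS (199.9 to 14.2 CPM, log2 ratio -3.80) and from 2785 to 90 with IL-4+anti-CD40 (152 to 6.39 CPM, -4.55). The first experiment had -0.38 with LPS and 0.83, which did not pass the test, with IL-4+anti-CD40. Under LPS 1 gene was 2-fold or more higher and 2 lower, where 20.3% of genes were higher and 19.5% lower. Under IL-4+anti-CD40 it was again 1 and 2, where 21.9% and 20.3% of all genes were. *Ccl4* was at 14.7 against 37.0 CPM (-1.32) and 8.51 against 19.0 CPM (-1.15). *Cxcl16* was higher with DSF, at 62.3 against 21.0 CPM (1.56) and 36.5 against 14.5 CPM (1.33). *Ccl22* was at 63.0 against 92.4 CPM (-0.55) and 26.1 against 47.7 CPM (-0.87), and *Ccl3* at 51.6 against 27.5 CPM (0.91) and 14.3 against 11.03 CPM (0.38).

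With ibrutinib no gene of the 7 was 2-fold different from vehicle under either stimulus, where 2.81% of genes were higher and 2.47% lower under LPS, and 2.23% and 1.69% under IL-4+anti-CD40. The log2 ratios ran from -0.67 for *Ccl4* to 1.00 for *Cxcl9*, just under 2-fold, with LPS, and from -0.79 for *Ccl3* to 0.31 for *Ccl5* with IL-4+anti-CD40. *Cxcl10* was at 151 CPM with ibrutinib under LPS and at 143 CPM with ibrutinib under IL-4+anti-CD40, against 199.9 and 152 CPM with vehicle. At the doses in the labels, DSF and ibrutinib libraries thus stood at 14.2 and 151 CPM for *Cxcl10* with LPS, with 1 library each and no test.

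**Figure D4:**
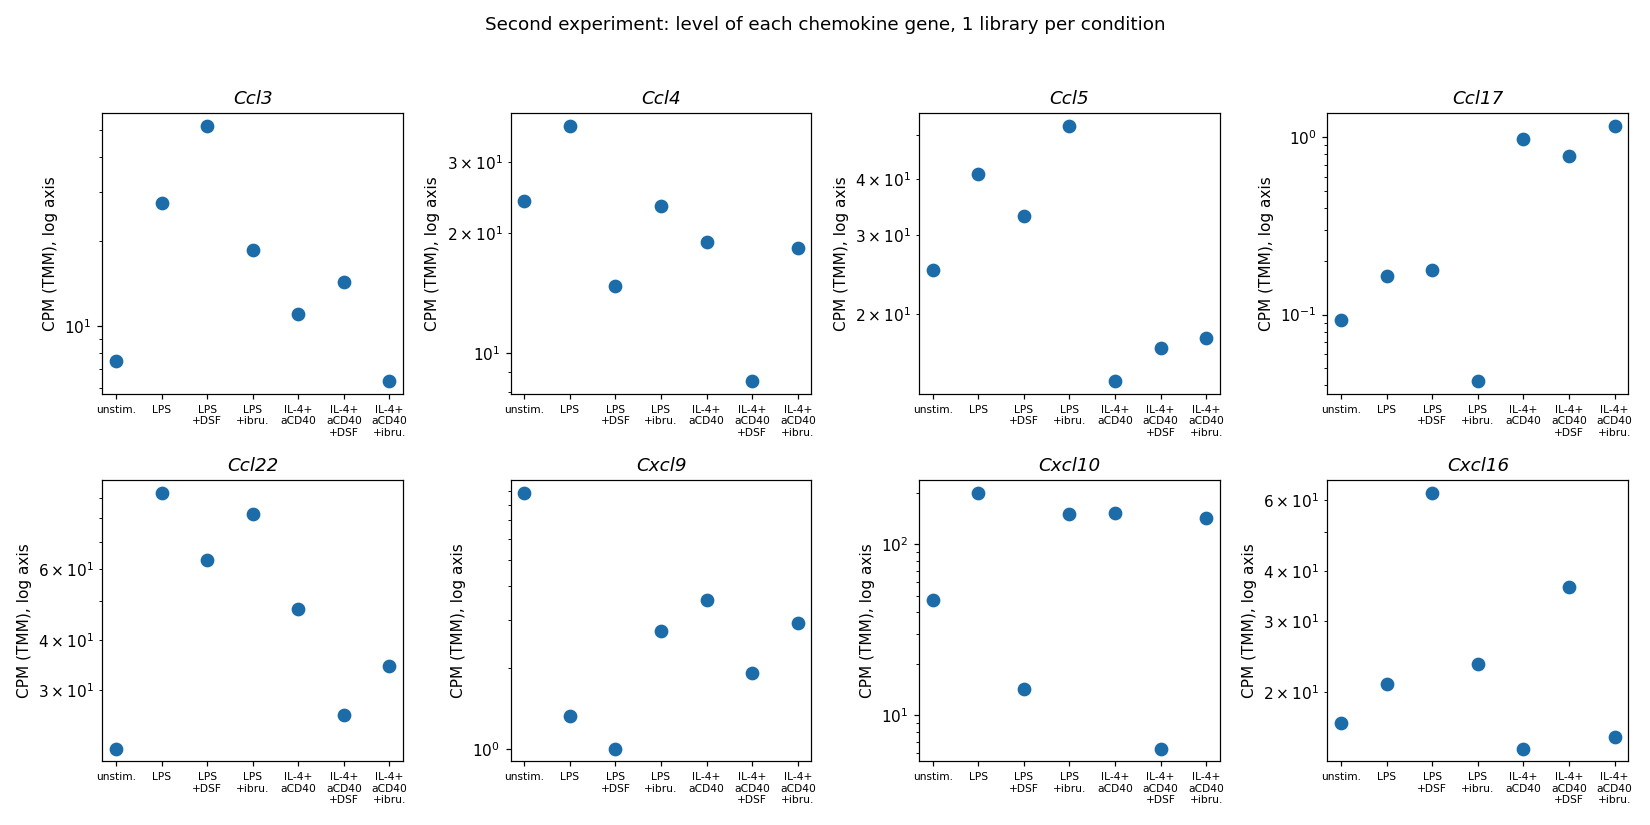
CPM (log axis) of each gene in the 7 libraries of the second experiment, 1 library per condition, with no replicates and so no error bars. *Cxcl10* is at 14.2 and 6.39 CPM with DSF and at 143 to 199.9 CPM in the other stimulated libraries.

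Markers of other cell types differed in the DSF libraries there, and not all in 1 direction. The summed level of the 9 macrophage and monocyte genes was 77.9 CPM when DSF was given under LPS and 73.9 CPM when it was given under IL-4+anti-CD40, against 27.2 and 31.9 CPM with vehicle and 31.7 and 34.7 CPM with ibrutinib. It was 36.5 CPM in unstimulated B cells, below every library of the first experiment. The summed level of the dendritic cell genes was lower with DSF, at 106 against 117 CPM under LPS and 83.5 against 121 CPM under IL-4+anti-CD40. That of 8 T cell genes was higher, at 11.4 against 6.82 CPM and 10.6 against 5.73 CPM, as was that of 5 plasma cell genes, at 527 against 249.6 CPM and 532 against 325 CPM, and that of 7 neutrophil genes, at 3.78 against 0.55 CPM and 4.68 against 0.983 CPM. Their part in the results was not tested.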

How the data were processed

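RNA-seq of mouse splenic B cells gave 20 libraries in the first experiment (5 groups of 4) and 7 in the second (1 per condition). The authors trimmed reads with Fastp, aligned them to mm10 with HISAT2 2.0.5 and counted reads per gene with featureCounts 1.5.0-p3, and the deposited tables hold these unnormalized counts of 54532 genes. The deposited FPKM values, which the authors derived from the same counts, were used only for levels between genes. The strand setting, annotation release and count model are not given in the sources used here.

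Groups were taken from the sample labels. Each comparison of the first experiment was fitted to the 8 libraries of its 2 groups (16 for the interaction) with edgeR 4.0.16 in R 4.3.3 (TMM scaling, filterByExpr, quasi-likelihood test), with Benjamini-Hochberg adjustment over all genes tested and a threshold of 0.05. SE is the absolute log2 fold change over the square root of F. Replicates 1 and 2, or 3 and 4, were also fitted alone, an alternative added after seeing the data. Scaling by total counts in place of TMM moved the median log2 fold change of all genes to between -0.43 and -0.04, and the report gives changes relative to TMM. CPM used TMM factors from genes averaging 10 or more counts, as the fits also leave out low genes. This replaced factors from all genes after those values had been seen, and both are compared in the closing section. For the second experiment log2 ratios of CPM with a prior count of 2 were taken over genes averaging 10 or more counts, with no test. Libraries of the first experiment held 17804851 to 23632992 counts, and those of the second 16049295 to 24619776. Counting intervals are exact 95% intervals for a ratio of counts scaled by total counts.

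DESeq2 1.42.0, other scalings and filters, one fit of all libraries, a replicate block and leaving out each library were alternatives. The fit was tested on simulated counts with the means and library sizes of the LPS libraries with and without DSF. These had the same dispersion for all genes and no shift between replicates. That test therefore does not cover the split seen in the unstimulated and IL-4+anti-CD40 libraries. The 8 genes, the gene lists and the tests were chosen with earlier results of these data known. From 3 lists the text names genes among those with, in a comparison, up to 3 of the largest log2 fold changes per direction that passed the test, where each library of the group with the higher level had 10 or more counts, and for each of the 8 genes the 2 genes most like it. A receptor gene and a B cell marker are not reported here and were left out of the lists. Summed levels of markers of T cells, NK cells, neutrophils and plasma cells were also read. T cell genes were at 3.44 to 14.0 CPM, NK cell genes at 3.27 to 11.9, neutrophil genes at 15.4 to 43.8 and plasma cell genes at 237 to 459 in the first experiment.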

Additional observations from a re-analysis of the deposited data

Results flagged for a closer look

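In 40 sets of 4 libraries (8 genes in 5 groups), the gap between the most extreme library and its nearest neighbour was set against the whole range of the group and compared with Dixon's 95% critical value, which chance passes in about 1 set of 20. It was passed by 3. *Ccl3* with LPS and DSF was at 237 CPM in replicate 4 and at 220 to 222 CPM in the others, a share of 0.855. *Cxcl9* with IL-4+anti-CD40 had 5 counts in replicate 4 and 1 count in each of the others, a share of 0.996. *Cxcl9* with IL-4+anti-CD40 and DSF had 3 counts in replicate 3 and 5 or 6 in the others, a share of 0.83. Both *Cxcl9* values rest on few counts. Leaving out any single library of the LPS and DSF group kept *Ccl3* past the threshold and higher with DSF.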

How the results depend on the processing

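Of the counts of genes passing the test or the 2-fold size, 143 values under alternatives stayed within 1.5 times the main count and 17 did not. The 4 calls for IL-4+anti-CD40 against unstimulated became 8 with replicates 3 and 4 only. For DSF with LPS the 6 calls became 1 with all 20 libraries in one fit. For DSF with IL-4+anti-CD40 the single call became 2 with DESeq2 size factors, 3 with any count, 0 in one fit, 5 with the replicate block, 5 with replicates 1 and 2 only, 6 with replicates 3 and 4 only and 5 with this subset as a term. The difference of the DSF effect went from 0 calls to 3 with any count. In the second experiment DSF with IL-4+anti-CD40 went from 3 to 5 genes by total counts, and ibrutinib with LPS from 0 to 1 (*Cxcl9*) with a prior count of 0.5 or with TMM factors from all genes.

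Leaving out 1 library at a time gave 6 to 7 calls for LPS, 3 to 4 for IL-4+anti-CD40, 5 to 7 for DSF with LPS, 7 to 8 between the stimuli, 6 to 7 for LPS with DSF and 4 to 7 for IL-4+anti-CD40 with DSF against unstimulated. For DSF with IL-4+anti-CD40 it gave 0 (without DSF replicate 2) to 3 (without vehicle replicate 4), and for the difference of the DSF effect 0 to 3 (without IL-4+anti-CD40 replicate 4).

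The direction turned with replicates 1 and 2 only for *Ccl5* (-1.62), *Cxcl10* (-0.0502) and *Cxcl16* (-0.93) with IL-4+anti-CD40 and for *Cxcl16* with IL-4+anti-CD40 and DSF (-0.47), and for *Cxcl16* with LPS (-0.21), each against unstimulated, and by total counts for *Ccl5* with DSF and LPS (-0.15). The cause was not tested.

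The labels do not say what a replicate number shares. The main fits therefore did not pair libraries by number. Correlations of deviations for equal numbers were 0.196, -0.03, -0.02 and 0.184 for DSF with IL-4+anti-CD40. In that comparison both groups shared the split of replicates: *Ccl5* was 7.24 times as high in replicates 3 and 4 with vehicle, and 4.89 times with DSF. The fit by group alone counts that split as spread. With the replicate block, calls for IL-4+anti-CD40 with DSF against unstimulated went from 6 to 3, and *Cxcl10* with IL-4+anti-CD40 no longer passed (1.96, edgeR adjusted p = 0.143). Mean CPM with TMM factors from all genes moved by more than 1 SD for *Ccl3*, *Ccl22* and *Cxcl10* with LPS and DSF only (216, 46.0 and 562 CPM). *Cxcl9* with IL-4+anti-CD40 and *Ccl17* outside it had at most 26 counts per library of the first experiment, and changes there may not be detectable at this depth.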
